A study of Daphnia magna with 2 samples.

Results

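FYB and FYH are library codes of the mixed sample of a *Daphnia magna* single-cell atlas made with inDrops, a droplet method that tags the RNA of each captured cell with a barcode and each molecule with a UMI (a tag that lets copies of 1 molecule be counted once). The members compared here are the barcodes of these 2 codes with at least 500 UMIs: 1103 in FYB and 179 in FYH. Together they are 1282 of the 2253 such barcodes of the mixed sample and of the 4352 in the whole series. The series' design says that samples were indexed to compare males with females, young with old animals and bodies with heads. The codes are not spelled out in the sources used here, and the tissue label of the mixed sample is whole body. The last letters of FYB and FYH were read as body and head, and no sex or age was taken from the other letters. Both codes share the dissociation with collagenase at 4 mg per ml and standard culture, and no genotype, strain or number of animals is given for either.

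*Daphnia* is a small crustacean whose head carries a fused compound eye, a simple median eye and the brain. Arthropod photoreceptors detect light with opsins, G-protein-coupled receptors that signal through a phospholipase C, and they release histamine as their transmitter. The trunk carries the leaf-like limbs, most of the fat cells, the ovary, the heart and much of the muscle. *Daphnia* haemoglobin is dissolved in the haemolymph and is known to be made by fat cells and by the epithelium of the limbs, while a chitinous cuticle covers the whole animal and is replaced at each moult.

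Each code is 1 library whose barcodes carry 2 lane labels. Lanes are taken as technical units and barcodes are not replicates, so no p-value can be given. Levels are CPM, counts scaled to a library sum of 1000000, and ratios are of CPM in the summed counts, with an exact conditional 95% interval that covers counting error only. In summed counts, more cells of a type and more RNA per cell cannot be told apart. FYB had 1326669 UMIs in kept barcodes (487 barcodes in lane 1 and 616 in lane 2) and FYH had 217618 UMIs (94 and 85 barcodes). The median depth was close, with 901 UMIs and 531 genes per barcode in FYB and 913 UMIs and 522 genes in FYH. The floor of 3 counts is 2.26 CPM in FYB and 13.8 CPM in FYH. A gene without a count in FYH therefore had to reach 55.1 CPM in FYB to be called 4-fold higher. Barcodes below 500 UMIs were far more numerous, with 29932 in FYB and 6288 in FYH, and served only to read the RNA that is not held in kept barcodes. The deposited barcodes carry numbers and no sequences, so barcodes shared between lanes or libraries could not be counted. If a cell appeared in both lanes, the barcode numbers would count it more than once and the binomial intervals would be too narrow. Some barcodes rich in opsins had no counterpart in the other lane. The opsin OPN4/RH3 (DAPMA1EVG011413) had 90 counts in 1 FYH barcode of lane 2 and 0 in lane 1. In FYB, OPN4/RH2 (DAPMA1EVG025431) had 118 counts in lane 2, 112 of them in 1 barcode, and 1 in lane 1. Whether other cells appeared in both lanes was not tested. The median similarity of an FYB barcode of lane 1 to its nearest neighbour was 0.267 in the other lane and 0.268 in its own, and for FYH lane 1 these values were 0.262 and 0.247.

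The 2 libraries differed in which specialised genes were abundant. The leading genes of FYB included globins, a heme synthesis enzyme, collagens, cuticle proteins and a superoxide dismutase. Those of FYH included opsins, a secreted CRISP-family protein and 3 genes without a symbol. The most abundant genes called higher in FYH were other genes, which also had no symbol. Of the 4814 genes that reached 50 counts when FYB and FYH were added, 245 were at least 4-fold higher in FYB (5.09% of those tested) and 152 were at least 4-fold higher in FYH (3.16%), or 397 in either direction (8.25%). The median log2 ratio of all genes tested was 0.26. In 244 of the 245 genes higher in FYB both FYB lanes lay above both FYH lanes, against a background of 42.5% of all genes tested. In 134 of the 152 genes higher in FYH both FYH lanes lay above both FYB lanes, against a background of 15.9%. The calls were made on sums of the same lanes, so nothing further is read from this. Between lanes of 1 library, 38 of 4440 genes (0.856%) differed by 4-fold in FYB and 36 of 855 (4.21%) in FYH, at each lane's own depth.

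**Figure D1:**
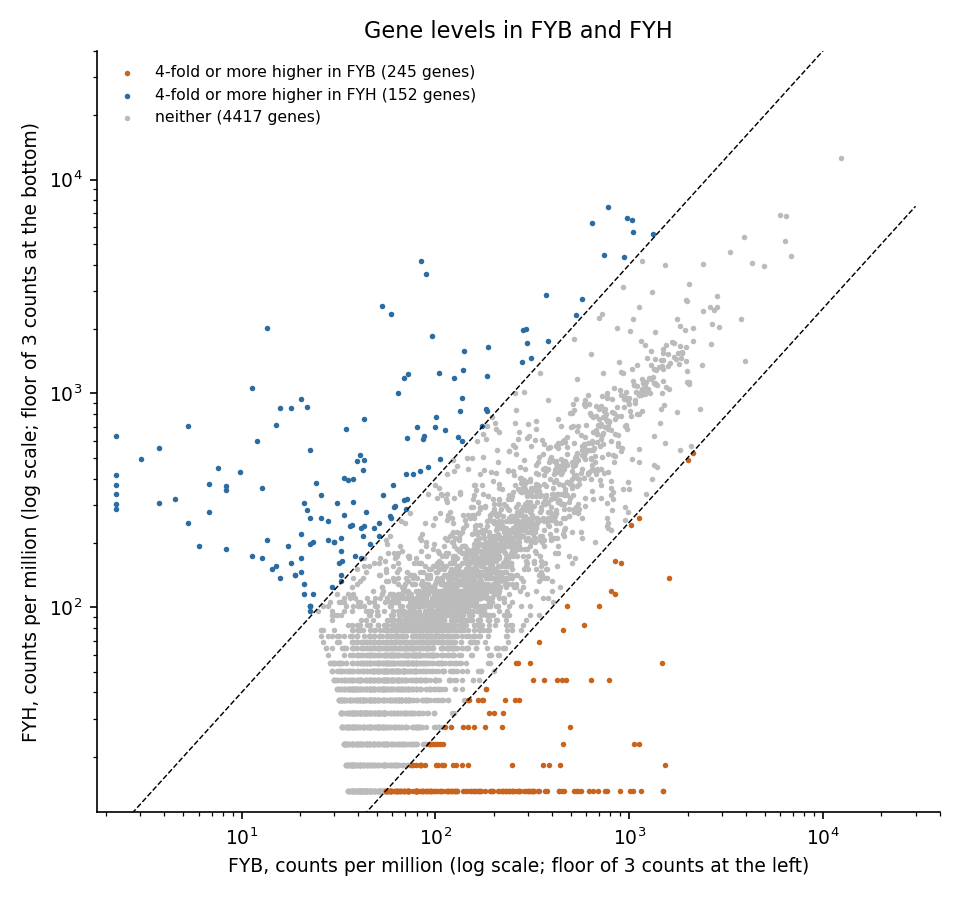
Level of each of the 4814 genes tested in FYB (horizontal) and FYH (vertical), in CPM on log axes, with sums under 3 counts drawn at 3 counts. Dashed lines mark 4-fold; the 245 genes higher in FYB lie below the lower line, many of them on the FYH floor, and the 152 higher in FYH lie above the upper line.

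The called genes carried unequal shares of the 2 libraries. Those higher in FYB made up 6.64% of FYB counts and 0.536% of FYH counts. Those higher in FYH made up 1.71% of FYB counts and 13.8% of FYH counts. The direction was read from few FYH molecules in much of the FYB set: 74 of the 245 genes had no count in FYH and 137 had fewer than 3. The FYH set rested more often on a single barcode, with at least 50% of the higher library's counts in 1 barcode for 8 of the 245 genes higher in FYB and for 32 of the 152 higher in FYH. A symbol was lacking for 141 of the genes higher in FYB and 79 of those higher in FYH. Names below give the human and fly symbols that the deposited gene names carry, with the transcript identifier.

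Globin genes were among the leading genes of FYB. CYGB/GLOB1 (DAPMA1EVG022505), a globin, had 623 and 720 counts in the FYB lanes and 1 and 0 counts in the FYH lanes. Its level was 1012 CPM in FYB and 4.60 CPM in FYH, a ratio of 220 (95% interval 39.5 to 8708). The other abundant globin, CYGB/CG44174 (DAPMA1EVG024847), had 452 and 469 counts in FYB against 1 and 0 in FYH, a ratio of 151 (27.0 to 5974). In both genes every FYB lane was far above every FYH lane. All 5 globin models together reached 1725 CPM in FYB and 32.2 CPM in FYH; the other 3 models had too few counts to be tested. In the other libraries of the mixed sample the globins ranged from 29 to 201 CPM.

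ALAS1/ALAS (DAPMA1EVG033870), the enzyme of the opening step of heme synthesis, followed the globins. It had 197 and 200 counts in the FYB lanes and none in FYH, where it was at least 21.7-fold lower. ALAS lay in the same barcodes as the globin: of the 52 FYB barcodes with at least 5 UMIs of GLOB1, 49 (94.2%) had ALAS, against 115 of the other 1051 (10.9%). The same 52 barcodes held CG44174 in 47 cases (90.4%, against 11.5% of the others). These barcodes were 4.71% of FYB (exact binomial 95% interval 3.54% to 6.14%; 23 in lane 1 and 29 in lane 2) and held 72.0% of its GLOB1 counts. FYH had 0 of 179, which allows a share of up to 1.68% by the limit of 3 counts (exact upper bound 2.04%). The 5-UMI limit was set after the values were seen, and 21 FYB barcodes lay just below it. Median depth was 815 UMIs in the GLOB1-rich barcodes and 904 in the others. GLOB1 was also spread thinly: 28.8% of FYB barcodes and 0.559% of FYH barcodes had at least 1 UMI of it, and with each barcode thinned to 500 UMIs the shares were 21.0% and 0%. Any globin UMI was found in 31.8% of the 22 FYB barcodes rich in the muscle gene MLC1 and in 18.5% of the 27 rich in the cuticle gene CPR49AG, at median depths of 742 and 1690 UMIs. In the 29 FYB barcodes rich in COL2A1/COL4A1 (DAPMA1EVG031663) and not in GLOB1 the share was 58.6%, at a median depth of 1090 UMIs. It was 33.7% in all FYB barcodes not rich in GLOB1. The source of globin UMIs outside the GLOB1-rich barcodes was not tested.

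Basement membrane collagens were also higher in FYB, the most abundant of them in barcodes that often held ALAS. COL2A1/COL4A1 (DAPMA1EVG031663), matched in the fly to a type IV collagen chain of basement membranes, had 1231 and 722 counts in FYB against 8 and 4 in FYH, a ratio of 26.7 (15.2 to 51.8). COL5A1/COL4A1 (DAPMA1EVG011456) had 409 and 340 counts in FYB and none in FYH, at least 41.0-fold higher in FYB. Of the 63 FYB barcodes with at least 5 UMIs of DAPMA1EVG031663, 55 (87.3%) had DAPMA1EVG011456, against 3.65% of the other FYB barcodes, and 47 (74.6%) had ALAS. No FYH barcode reached 5 UMIs. MTR/NDG (DAPMA1EVG013793), named after the fly basement membrane protein nidogen, had 73 and 52 counts in FYB and none in FYH (at least 6.83-fold); on lane 2 alone the FYH floor gives only at least 2.39-fold. COL4A5/COL4A1 (DAPMA1EVG033996), with 63 and 11 counts in FYB and none in FYH, was at least 4.05-fold higher in FYB, but at least 3.86-fold with TMM scaling (which adjusts library totals), and on lane 2 alone its 11 FYB counts lay below the FYH floor. It was found in 0 of the 63 barcodes rich in DAPMA1EVG031663 and in 0 of the 52 rich in GLOB1. These 4 were the only called genes among the 23 tested members of the basement membrane and hemocyte list. Of all genes tested, 5.09% were called higher in FYB. The median log2 ratio of the list was 0.37 beside 0.26 for all genes.

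Several other leading FYB genes shared these barcodes. SRRM1/SRM160 (DAPMA1EVG033979), named after a splicing coactivator, had 1045 and 983 counts in FYB against 1 and 3 in FYH, a ratio of 83.2 (32.4 to 306). CV (DAPMA1EVG030366), named after crossveinless, a secreted BMP-binding protein of the fly, had 933 and 1054 counts in FYB against 0 and 2 in FYH, a ratio of 163 (45.1 to 1347). Both were found in all 52 GLOB1-rich barcodes and in 25.6% and 26.2% of the other FYB barcodes. VPS33A/CAR (DAPMA1EVG034051), a vesicle tethering subunit, had 813 and 585 counts in FYB against 2 and 3 in FYH, a ratio of 45.9 (19.6 to 142). NPC2/NPC2A (DAPMA1EVG015044), a sterol-binding protein, had 282 and 231 counts in FYB against 1 and 3 in FYH, a ratio of 21.0 (8.17 to 77.5). VPS33A/CAR and NPC2A were each present in 42 of the 52 GLOB1-rich barcodes (80.8%).

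SOD1/SOD1 (DAPMA1EVG003944), named after the copper and zinc superoxide dismutase that removes superoxide, was the named gene with the most counts at 0 in FYH. It had 1311 and 673 counts in FYB and none in FYH, at least 108-fold higher in FYB, and lane 1 of FYB held the larger part. Of the 44 FYB barcodes with at least 5 UMIs of it, 42 (95.5%) had VPS33A/CAR and 31 (70.5%) had GLOB1, against 15.0% and 27.1% of the other barcodes. Its level was 1495 CPM in FYB, and the other libraries of the mixed sample ranged from 9.74 CPM in code MY2 to 1606 CPM in code FO1. Of 15 tested ferritin and antioxidant genes, the other called gene was FTH1/FER2LCH (DAPMA1EVG022333), a ferritin chain that stores iron. It ran the other way, with 7 and 27 counts in FYB against 41 and 32 in FYH, 13.1-fold higher in FYH (8.60 to 20.3). The list median was 0.09. Of all genes tested, 5.09% were called higher in FYB and 3.16% in FYH, so 1 gene in each direction is no result about the list.

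Cuticle genes differed in both directions. CPR49AG (DAPMA1EVG029381), a chitin-binding cuticle protein, had 652 and 874 counts in FYB against 1 and 1 in FYH, a ratio of 125 (34.6 to 1034). CPR78CC (DAPMA1EVG033394) had 125 and 227 counts in FYB and none in FYH, at least 19.2-fold higher in FYB. The CPR49AG transcripts were concentrated: 27 FYB barcodes (2.45%, 1.62% to 3.54%) with at least 5 UMIs held 91.2% of the FYB counts, and no FYH barcode reached that level. In those 27 barcodes the neighbouring model CPR49AG (DAPMA1EVG029383) was present in 25 (92.6%, against 3.81% elsewhere) and CPR78CC in 16 (59.3%, against 2.32%). Of 33 tested cuticle and chitin genes, 9 were 4-fold higher in FYB, where 5.09% of all genes were, and 4 in FYH, where 3.16% were. The list median was 0.09.

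The cuticle genes higher in FYH were models of 1 gene name, CPR49AE, and all rested on a single lane 1 barcode per gene. CPR49AE (DAPMA1EVG024679, model m000066F_s3.146) had 25 and 29 counts in FYB against 112 and 0 in FYH, and all 112 lay in 1 barcode. CPR49AE (DAPMA1EVG024685) had 5 and 4 counts in FYB against 61 and 0 in FYH, likewise in 1 barcode. Without the barcode richest in each gene, none of them kept a count in FYH. The 3.05-fold then computed for CPR49AE (DAPMA1EVG024685) in FYH comes from the floor of 3 counts alone. Reads of models that neighbour each other or share an identifier could be split between them. Of the cuticle genes called in FYB, 3 with no count in FYH could no longer be called without the barcode richest in each: CPR49AA (DAPMA1EVG029413), CPR78CC (DAPMA1EVG029412) and CPR49AA (DAPMA1EVG013866). CPR49AA (DAPMA1EVG013866) had 7 and 77 counts in FYB and none in FYH, and without the barcode richest in it the FYH floor gives only at least 1.15-fold.

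Some muscle genes were higher in FYB. MYL4/MLC1 (DAPMA1EVG011061), a myosin light chain, had 261 and 333 counts in FYB against 8 and 2 in FYH, a ratio of 9.74 (5.26 to 20.4). MYH6/PRM (DAPMA1EVG025173), named after the thick filament protein paramyosin, had 127 and 229 counts in FYB against 9 and 3 in FYH, a ratio of 4.87 (2.75 to 9.51), and its lane 1 ratio was 2.77. TTN/BT (DAPMA1EVG017757), named after the fly bent gene (projectin), had 52 and 44 counts in FYB against 2 and 0 in FYH. CNN2/MP20 (DAPMA1EVG017865, model m000012F_a18.65), a calponin-like muscle protein, had 55 and 42 against 2 and 0. Ratios of TTN/BT and CNN2/MP20 were 7.87 (2.12 to 66.0) and 7.96 (2.14 to 66.6), and with FYH counts under 3 set to 3 neither reached 4-fold in either lane alone (1.93 to 3.60). Of 17 tested sarcomere genes these 4 were called, all higher in FYB, where 5.09% of all genes were. The list median was 1.31 beside 0.26 for all genes. Barcodes with at least 5 UMIs of MLC1 were 22 in FYB (1.99%, 1.25% to 3.0%) and 1 in FYH (0.559%, 0.0141% to 3.07%), so the intervals overlap. All 22 of the FYB barcodes had PRM and 16 (72.7%) had MP20, against 6.75% and 1.20% of the others. In barcodes under 500 UMIs the MLC1 ratio was 1.90.

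Hox and anteroposterior patterning genes had few counts, and all 6 tested had a positive log2 ratio. HOXA7/ANTP (DAPMA1EVG033221), named after Antennapedia, a Hox gene of the arthropod thorax, had 49 and 76 counts in FYB against 2 and 0 in FYH. The ratio was 10.3 (2.78 to 85.6), spread over 75 FYB barcodes, and with FYH counts under 3 set to 3 it was under 4-fold in either lane alone (3.50 and 3.20). HOXA5/SCR (DAPMA1EVG033226), named after Sex combs reduced, had 46 and 24 counts in FYB and none in FYH, and HOXD3/ANTP (DAPMA1EVG033219) had 28 and 28 and none. Neither had the 74 counts that a call against 0 needs at this depth. OTX2/OC (DAPMA1EVG012055), named after the fly head gene orthodenticle, had 33 and 47 counts in FYB against 2 and 2 in FYH, a ratio of 3.28 (1.23 to 12.3) that was not called. ANTP (DAPMA1EVG033221) was the only called gene of the 6, whose median log2 ratio was 1.66. Beside the 5.09% of all genes called in this direction, 1 gene of so short a list is no result about the list. In barcodes under 500 UMIs the list held 0.0582% of counts in FYB and 0.0688% in FYH.

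Called genes of the lipid, steroid, mitosis and germline lists were all higher in FYB. SCD5/DESAT1 (DAPMA1EVG020354), a fatty acid desaturase, had 103 and 119 counts in FYB against 1 and 2 in FYH, a ratio of 12.1 (4.10 to 59.3). With NPC2A, NPC2B and FABP it made 4 called genes among 21 tested lipid genes (median 0.34), beside 5.09% of all genes. With FYH counts under 3 set to 3, FABP and NPC2B did not reach 4-fold in either lane alone. NVD (DAPMA1EVG026057), named after neverland, an enzyme at the start of ecdysteroid synthesis, had 73 and 80 counts in FYB against 1 and 1 in FYH, a ratio of 12.5 (3.41 to 105). It was the only called gene of 12 tested ecdysteroid and juvenile hormone genes (median 0.22), and on lane 2 alone its floored ratio was 3.68. CCNB2/CYCB (DAPMA1EVG019766), a mitotic cyclin, had 612 and 741 counts in FYB against 25 and 28 in FYH, a ratio of 4.19 (3.18 to 5.62), which came to 3.999 with TMM scaling and to 3.65 on lane 2 alone. All 11 tested mitosis genes had a positive log2 ratio and the median was 1.0, but only CYCB passed 4-fold. Barcodes with at least 5 UMIs of CYCB were 9.34% of FYB (7.69% to 11.2%) and 1.12% of FYH (0.136% to 3.98%); thinned to 500 UMIs they were 1.63% and 0.559%, with overlapping intervals. The CYCB-rich FYB barcodes were deep, with a median of 2024 UMIs. In barcodes under 500 UMIs CYCB pointed the other way, 2.30-fold higher in FYH, and the mitosis list held 0.154% of counts in FYB and 0.293% in FYH. TDRD15/TUD (DAPMA1EVG024057), named after the germline gene tudor, had 39 and 58 counts in FYB against 2 and 1 in FYH, a ratio of 5.30 (1.76 to 26.2) that with FYH counts under 3 set to 3 was 2.67 on lane 2 and 2.55 on lane 1. In barcodes under 500 UMIs TUD pointed the other way, 1.74-fold higher in FYH. There the germline list held 0.144% of counts in FYB and 0.164% in FYH. TUD was the only called gene of 13 tested germline genes (median 0.65). Beside the 5.09% of all genes called in this direction, 1 gene of a list of this size is no result about the list, and the same holds for NVD and CYCB. TUD lay in 48 of the 103 CYCB-rich barcodes (46.6%, against 2.90% of the others).

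ADAMTS18/STL (DAPMA1EVG030840), a secreted metalloprotease named after fly stall, had 195 and 226 counts in FYB and none in FYH, at least 23.0-fold higher in FYB. Leading genes without a symbol had the same pattern. DAPMA1EVG018580 (model g000074F_p2.26) had 453 and 571 counts in FYB and none in FYH (at least 56.0-fold), DAPMA1EVG015174 had 378 and 443 and none (at least 44.9-fold), and DAPMA1EVG005995 had 558 and 831 against 1 and 0 in FYH (ratio 228, 40.8 to 9006). The most abundant genes called in this direction differed less: DAPMA1EVG017517 was at 2143 CPM in FYB and 528 CPM in FYH, and C1GALT1/C1GALTA (DAPMA1EVG026096), a glycosyltransferase, was at 2004 and 487 CPM. Ratios of 4.06 and 4.11 became 3.87 and 3.93 with TMM scaling.

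**Figure D2:**
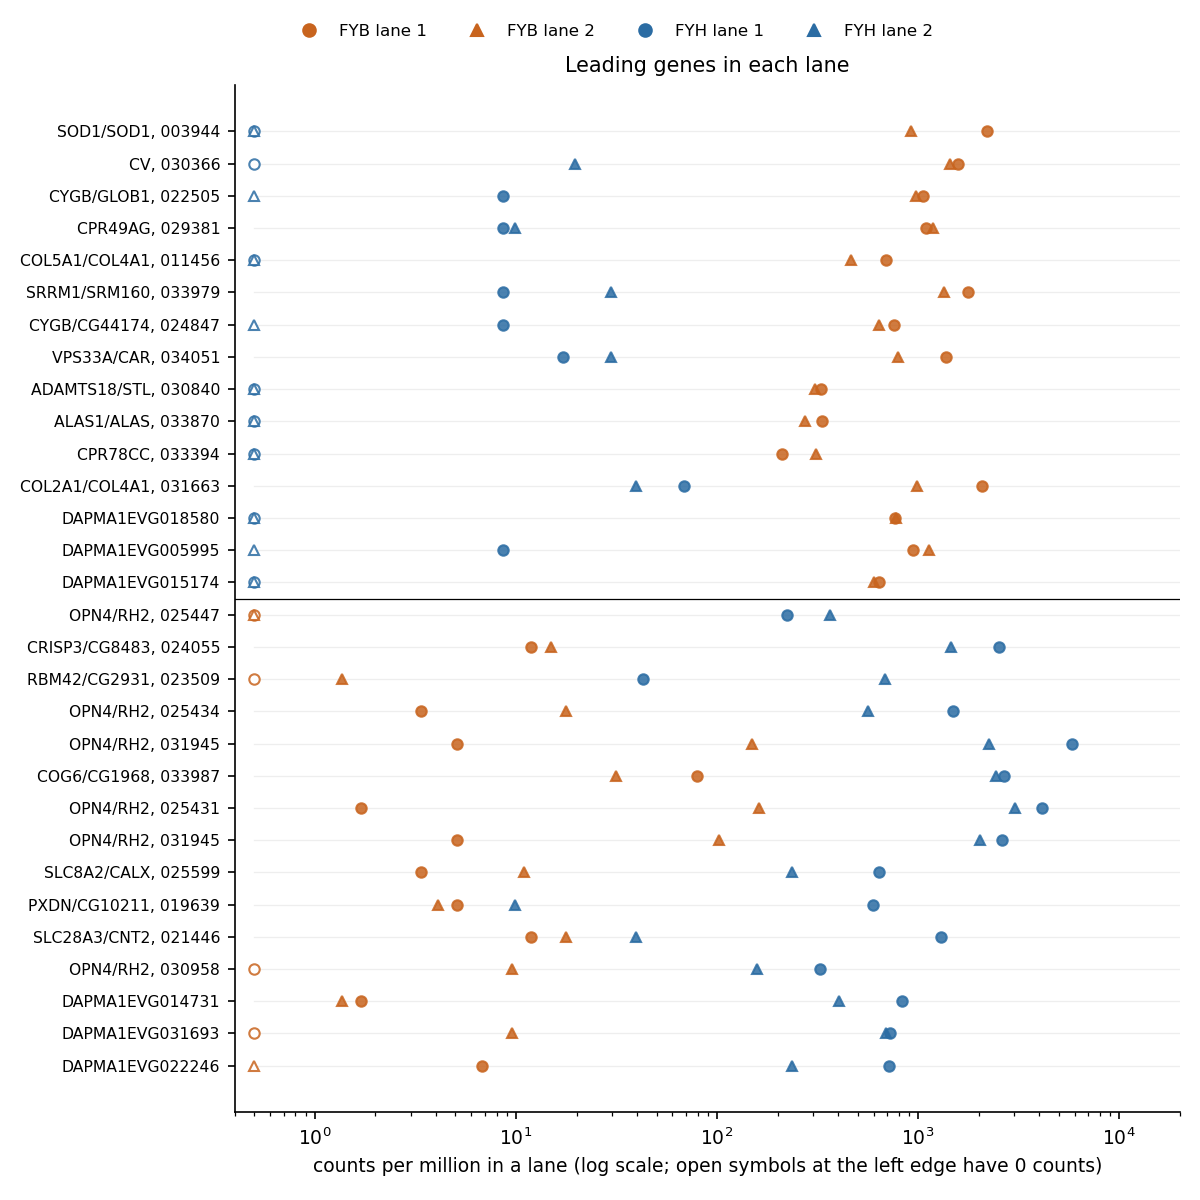
Level of the 15 leading genes of FYB (above the line) and of FYH (below it) in each lane, in CPM on a log axis, labelled by symbol and the digits of the identifier. Circles are lane 1 and triangles lane 2, FYB in orange and FYH in blue; open symbols mark 0 counts. The lanes of FYB lie to the right of those of FYH above the line, and to their left below it, which the rule for choosing these genes required.

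FYH was set apart by opsin RNA. The 18 opsin models had 357 UMIs in FYB (269 CPM) and 2699 in FYH (12402 CPM), and 304 of the 357 in FYB lay in 1 barcode of lane 2. The other libraries of the mixed sample ranged from 34.8 to 192 CPM in kept barcodes. In barcodes under 500 UMIs opsins were 0.0592% of UMIs in FYB, 10.7% in FYH and between 0.225% and 2.41% in the other libraries. All 7 opsin models with enough counts for the comparison were at least 4-fold higher in FYH, where 3.16% of all genes were. OPN4/RH2 (DAPMA1EVG025431) had 1 and 118 counts in FYB against 482 and 308 in FYH, 40.5-fold higher in FYH (33.3 to 49.5). The models of DAPMA1EVG031945 had 3 and 109 counts in FYB against 677 and 227 in FYH (m000005F_a18.41), and 3 and 75 against 305 and 207 (m000020F_s14.34), or 49.2-fold and 40.0-fold higher in FYH. In each of these models FYB lane 2 was higher than FYB lane 1, and both were below both FYH lanes. DAPMA1EVG025434 had 2 and 13 counts in FYB against 173 and 57 in FYH, and DAPMA1EVG030958 had 0 and 7 against 38 and 16. DAPMA1EVG025447 had none in FYB and 26 and 37 in FYH, at least 128-fold higher in FYH, but in only 3 barcodes.

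Opsin RNA was concentrated in few FYH barcodes and thinly spread in the rest. With a limit of 20 opsin UMIs set after the values were seen, 1 of 1103 FYB barcodes (0.0907%, 0.00230% to 0.504%) and 12 of 179 FYH barcodes (6.70%, 3.51% to 11.4%) were rich in opsins. The 12 comprised 8 in lane 1 and 4 in lane 2 and held 82.8% of the FYH opsin counts. Opsins made up from 2.64% to 62.1% of the UMIs of a rich FYH barcode. The leading opsin took between 25% and 81.3% of the opsin UMIs in a barcode, and in 0 of the 12 did it reach 90%. The rich FYB barcode had 524 UMIs in all, 58.0% of them opsins.

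Some of the rich barcodes held other genes that the limit did not use, photoreceptor genes among them. MYO3A/NINAC (DAPMA1EVG011379), a myosin of the fly photoreceptor, was in 7 of the 12 rich FYH barcodes (58.3%) and in 8 of the other 167 (4.79%). HDC/HDC (DAPMA1EVG016492), the enzyme that makes histamine, was in 6 of the 12 (50%) and in 3 of the 167 (1.8%). Each rich FYH barcode without NINAC also lacked HDC and NORPA, the phospholipase C gene. Among these were the barcodes with the highest opsin shares, 62.1% and 52.5% of UMIs. The gene without a symbol DAPMA1EVG031693 was in 10 of the 12 (83.3%, against 4.19%). SCG5/7B2 (DAPMA1EVG018558), a chaperone of the prohormone convertase, was in 6 of the 12 (50%, against 12%). Median depth was 769.5 UMIs in the rich barcodes and 935 in the others. Summed over FYH, NINAC had 1 and 29 counts in FYB against 45 and 12 in FYH, 11.6-fold higher in FYH (7.32 to 18.7); on lane 2 alone it was 3.0-fold. HDC had 27 and 16 counts in FYB against 11 and 18 in FYH, 4.11-fold higher in FYH (2.48 to 6.74), and 2.08-fold on lane 1 alone.

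Most FYH barcodes held at least 1 opsin UMI. Any opsin UMI was found in 4.44% of FYB barcodes (3.30% to 5.83%) and in 78.2% of FYH barcodes (71.4% to 84.0%); thinned to 500 UMIs the shares were 2.27% and 58.1%. Outside the rich barcodes they were 4.36% in FYB and 76.6% in FYH, where the median was 2 opsin UMIs. Among FYH barcodes rich in DAPMA1EVG020150 and not in opsins, 19 of 26 (73.1%) had an opsin UMI, at a median depth of 1356.5 UMIs. Thinned to 500 UMIs the share was 30.8% in these barcodes and 55.1% in all FYH barcodes not rich in opsins. NINAC was found in 7 of the 26, so they are not known to lack photoreceptor RNA. It was also found among the 35 such barcodes of FYB, of which 1 (2.86%) had an opsin UMI, so NINAC was not confined to barcodes with opsins. Among FYH barcodes rich in AMON and not in opsins, 8 of 11 (72.7%) had an opsin UMI, and 63.6% after thinning. In FYH the opsin share of UMIs was 11.7% in barcodes of 57 to 99 UMIs, 2.75% at 500 to 999 and 0.0699% at 2000 or more. Where the opsin UMIs outside the rich barcodes came from was not tested, and the count of rich barcodes was used as the measure. The part of RNA from outside the cells in the summed opsin ratios was not tested.

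**Figure D3:**
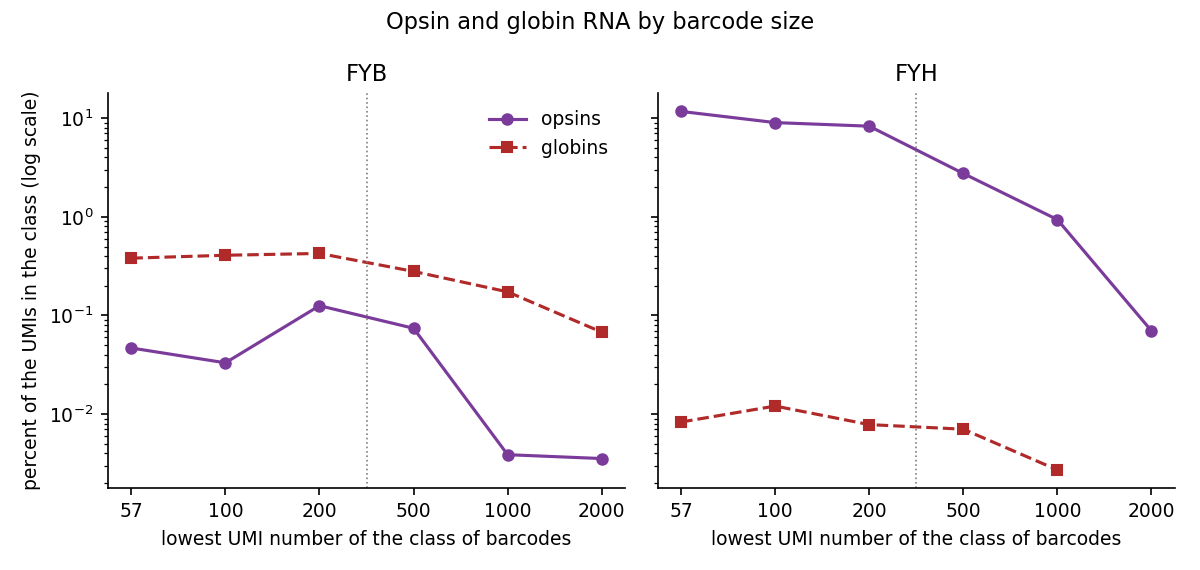
Percent of UMIs that belong to opsins (circles) and globins (squares) in barcodes grouped by their UMI number, for FYB (left) and FYH (right), on a log axis; the dotted line marks the 500-UMI limit, and the FYH globin value of 0 in the deepest class is not drawn. Opsins were 11.7% of the smallest FYH barcodes and 0.0699% of the deepest, and globins stayed above opsins in every FYB class.

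The rest of the light-sensing pathway differed less than its receptors. Of 16 tested phototransduction genes, 8 were 4-fold higher in FYH, where 3.16% of all genes were, and none in FYB. The 8 are 7 opsins and NINAC, and the median log2 ratio of the list was -2.36. PLCB4/NORPA (DAPMA1EVG024807), the phospholipase C of the cascade, had 126 and 153 counts in FYB against 73 and 31 in FYH, or 210 and 478 CPM. GNAQ/GALPHAQ (DAPMA1EVG021690), the G protein that opsins activate, had 129 and 152 counts in FYB against 42 and 37 in FYH, or 212 and 363 CPM. ADGRL3/ARR1 (DAPMA1EVG012018), named after an arrestin that ends the opsin signal, was at 117 CPM in FYB and 262 CPM in FYH. The RH7-type opsins, outside the opsin sum, were not called: OPN5/RH7 (DAPMA1EVG020929) was at 100.3 CPM in FYB and 78.1 CPM in FYH. OPN4/RH3 (DAPMA1EVG011413) had no count in FYB and 90 in FYH, all in 1 barcode of lane 2.

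A prohormone convertase and its chaperone were higher in FYH. PCSK2/AMON (DAPMA1EVG015046), a prohormone convertase that matures neuropeptides, had 79 and 99 counts in FYB against 82 and 99 in FYH, 6.20-fold higher in FYH (5.01 to 7.67). Its chaperone SCG5/7B2 had 54 and 78 counts in FYB against 68 and 83 in FYH, 6.97-fold higher in FYH (5.48 to 8.88). In both genes the lanes of each library were close and the libraries did not overlap in CPM. Barcodes with at least 5 UMIs of AMON were 15 in FYB (1.36%, 0.763% to 2.23%) and 13 in FYH (7.26%, 3.92% to 12.1%); thinned to 500 UMIs they were 0.363% and 3.91%. Of these, 15 of 15 in FYB and 12 of 13 in FYH had 7B2. ANTP was in 6 of the 15 FYB barcodes (40.0%), against 6.34% of the other FYB barcodes. PAM/PHM (DAPMA1EVG031389), an enzyme that amidates peptides, had 81 and 136 counts in FYB against 75 and 55 in FYH, or 164 and 597 CPM, and stayed under 4-fold. Of 18 tested transmitter and peptide processing genes, AMON, 7B2 and HDC were called, all higher in FYH, where 3.16% of all genes were. The list median was -0.82.

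Synaptic genes had smaller differences. None of 14 tested synaptic vesicle release genes passed 4-fold, and the median log2 ratio was -0.54. SYT1/SYT1 (DAPMA1EVG032503), the calcium sensor of vesicle release, was at 617 CPM in FYB and 896 CPM in FYH, and RAB3C/RAB3 (DAPMA1EVG030967) at 114 and 322 CPM. None of 9 tested neuronal RNA-binding and axon genes was called (median -0.37), nor any of 6 eye and head regulators (median -0.25). With 8.25% of all genes called in either direction, the absence of a call in lists this short is no result about them. SIX2/SO (DAPMA1EVG024922), named after the eye gene sine oculis, had 13 and 21 counts in FYB against 11 and 6 in FYH, or 25.6 and 78.1 CPM. RUNX3/LZ (DAPMA1EVG029732), named after lozenge, had 31 and 29 counts in FYB and none in FYH, below the call limit.

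The most abundant genes called higher in FYH had no symbol. DAPMA1EVG020150 had 225 and 811 counts in FYB against 839 and 776 in FYH, or 781 and 7421 CPM, 9.50-fold higher in FYH (8.78 to 10.3). DAPMA1EVG015138 was at 976 CPM in FYB and 6608 CPM in FYH, DAPMA1EVG015780 (model s000016F_p16.68) at 1038 and 6456 CPM, and DAPMA1EVG013651 at 644 and 6282 CPM. Lane 2 of FYB held more of DAPMA1EVG020150 than lane 1, and both stayed below the FYH lanes. Barcodes with at least 5 UMIs of DAPMA1EVG020150 were 35 in FYB (3.17%, 2.22% to 4.39%) and 26 in FYH (14.5%, 9.71% to 20.6%), and thinning to 500 UMIs left 2.99% and 14.0%. They held 89.1% of its counts in FYB and 99.2% in FYH. NINAC was found in 11 of the 35 FYB barcodes (31.4%, against 0.468% of the others) and in 7 of the 26 FYH barcodes (26.9%, against 5.23%), while 7B2 was in 0 of both.

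COG6/CG1968 and DAPMA1EVG022246 were chosen as leading FYH genes, so their scarcity in FYB barcodes follows from the choice and is given only as a description. COG6/CG1968 (DAPMA1EVG033987), named after a Golgi tethering subunit, had 47 and 23 counts in FYB against 311 and 246 in FYH, 48.5-fold higher in FYH (37.8 to 63.1). It was present in 0 of the 35 DAPMA1EVG020150-rich barcodes of FYB and in 13 of the 26 of FYH (50%). DAPMA1EVG022246, with 4 and 0 counts in FYB against 83 and 24 in FYH, was in 1 of the 35 (2.86%) and in 12 of the 26 (46.2%). Outside them COG6/CG1968 was found in 3.84% of FYB barcodes and in 3.27% of FYH barcodes. Both DAPMA1EVG020150-rich groups come from 1 library each, so library and tissue cannot be told apart.

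The remaining leading FYH genes varied in how many barcodes carried them. CRISP3/CG8483 (DAPMA1EVG024055), a cysteine-rich secretory protein, had 7 and 11 counts in FYB against 295 and 147 in FYH, 150-fold higher in FYH (93.6 to 255), in 10 FYH barcodes. DAPMA1EVG014731 (model m000028F_a13.121) had 1 and 1 counts in FYB against 97 and 41 in FYH, 421-fold higher in FYH (114 to 3508), in 9 FYH barcodes. DAPMA1EVG031693, the gene shared by opsin-rich barcodes, had 0 and 7 counts in FYB against 84 and 70 in FYH, 134-fold higher in FYH (63.6 to 339). Others rested on few FYH barcodes. RBM42/CG2931 (DAPMA1EVG023509), named after an RNA-binding protein, had 0 and 1 counts in FYB against 5 and 69 in FYH, and all 69 lay in 1 barcode. SLC8A2/CALX (DAPMA1EVG025599), a sodium and calcium exchanger, had 2 and 8 counts in FYB against 74 and 24 in FYH, in 2 barcodes. PXDN/CG10211 (DAPMA1EVG019639), a peroxidase, had 3 and 3 counts in FYB against 69 and 1 in FYH, in 3 barcodes. SLC28A3/CNT2 (DAPMA1EVG021446), a nucleoside transporter, had 7 and 13 counts in FYB against 151 and 4 in FYH, with 77 in 1 barcode, and on lane 2 alone it was 2.23-fold higher in FYH.

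**Figure D4:**
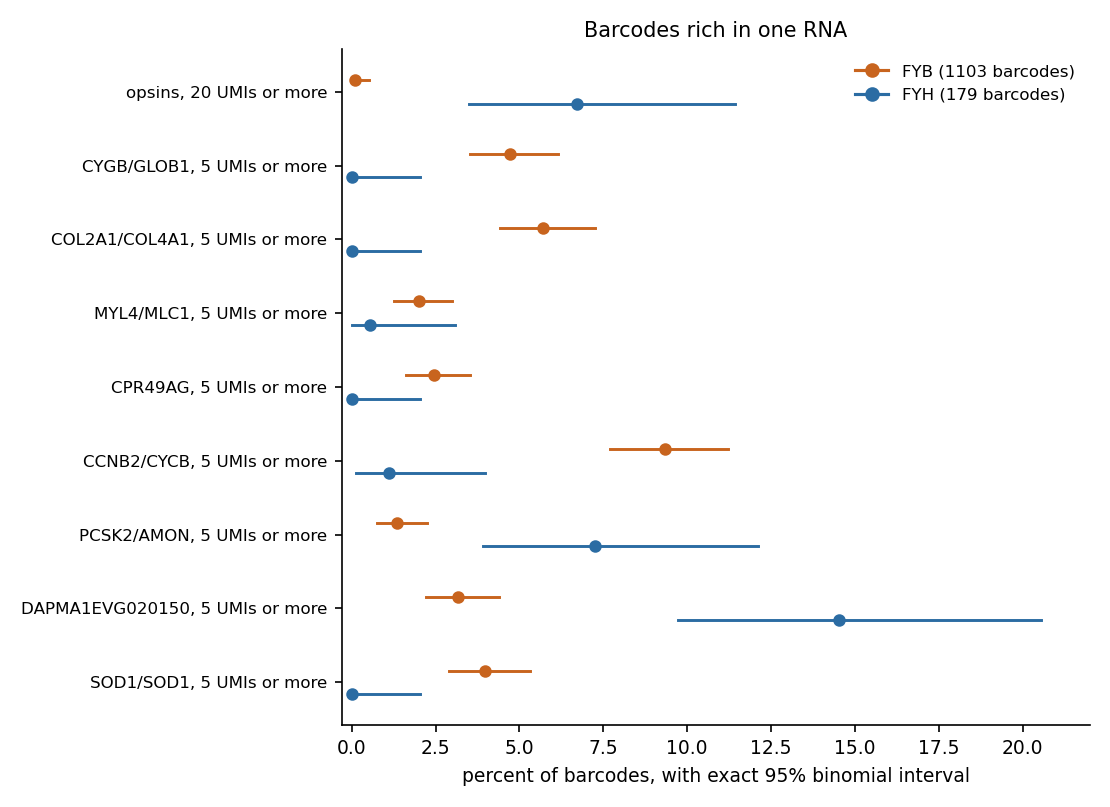
Percent of barcodes in FYB (orange, above) and FYH (blue, below) that hold at least the stated number of UMIs of a gene, or of all opsins, with exact 95% binomial intervals that cover counting error only. Intervals do not overlap for opsins, GLOB1, COL2A1/COL4A1, CYCB, AMON, DAPMA1EVG020150 and SOD1, and they overlap for MLC1 and CPR49AG. With barcodes thinned to equal depth, the CYCB intervals overlap as well (0.970% to 2.57% in FYB, 0.0141% to 3.07% in FYH). The genes were already called in these same barcodes, and the UMI limits were set after the values were seen. Separation of the intervals therefore follows in large part from the choice and is given only as a description.

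Among digestive enzymes, 2 trypsins were higher in FYH. The trypsins PRSS2/ALPHATRY (DAPMA1EVG031107), with 26 and 55 counts in FYB against 25 and 39 in FYH, and TMPRSS3/LAMBDATRY (DAPMA1EVG020122), with 0 and 32 against 56 and 27, were 4.82-fold and 15.8-fold higher in FYH. ALPHATRY was 3.51-fold higher without the barcode of each library richest in it. Both belong to a list of digestive genes with 15 tested members (median 0.37), of which 1 was called higher in FYB. Of all genes tested, 3.16% were called higher in FYH. Of 22 tested ion transport genes only SLC8A2/CALX was called, which beside that share is no result about the list.

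No gene of the lists for general cell functions was called. With 8.25% of all genes called in either direction, the absence of a call in lists of 16 genes or fewer is no result about them. None of 64 tested cytosolic ribosomal protein genes was called (median 0.12), none of 6 glycolysis genes (0.46), none of 6 DNA replication genes (0.81) and none of 7 immediate early genes (0.01). None of 16 heat shock and chaperonin genes passed 4-fold, although all 16 had a positive log2 ratio (median 0.79). The 2 tested mitochondrially encoded models, both named MT-CO2, had a median of 0.27.

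**Figure D5:**
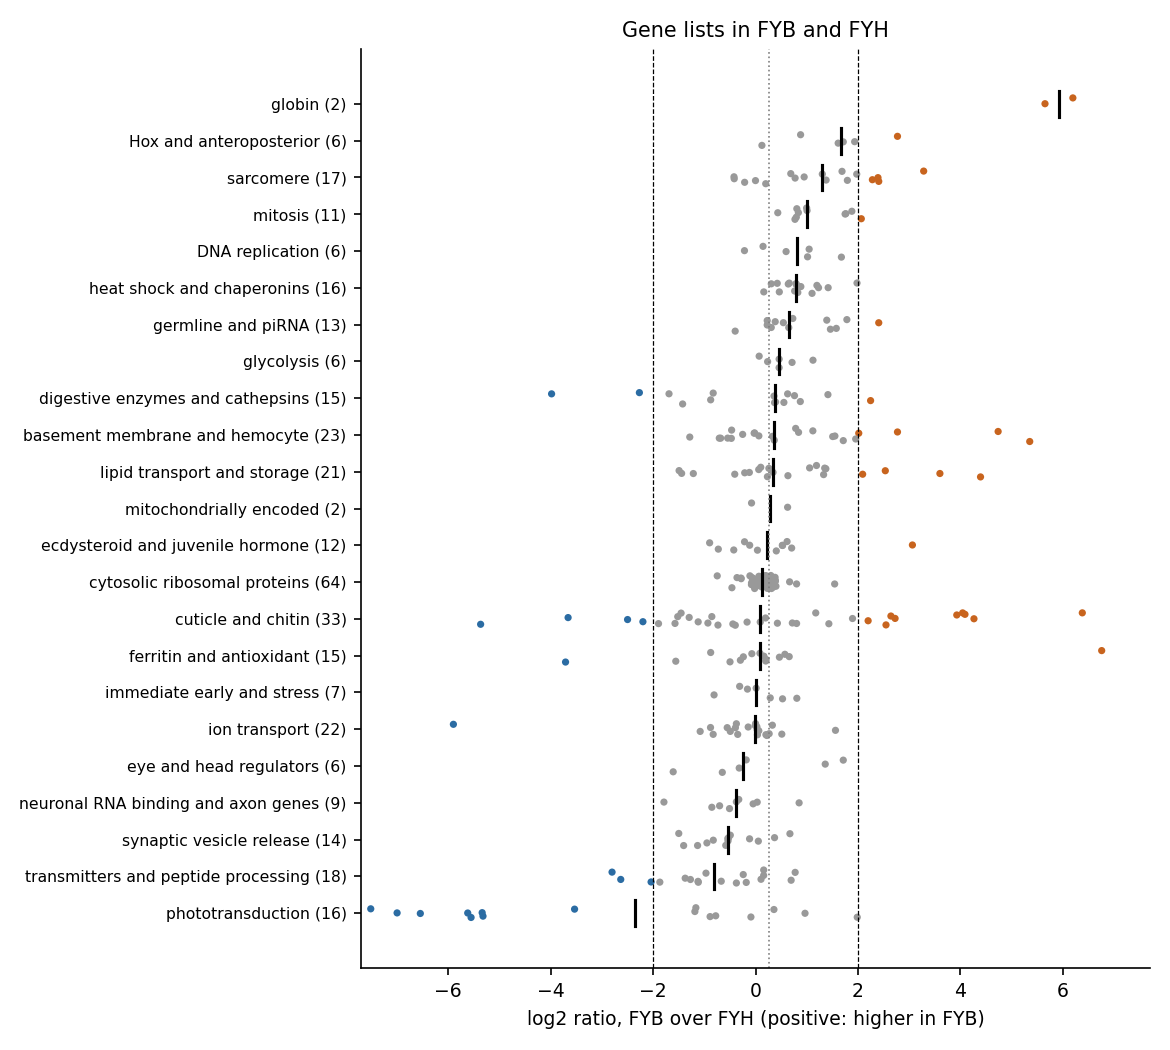
Log2 ratio of FYB over FYH for each tested gene (points) of 23 lists, with the list median (black bar), the median of all genes tested (dotted line, 0.26) and the 4-fold limits (dashed lines); the number of tested genes follows each name. Globins lie at the positive end and the phototransduction list, with a median of -2.36, at the negative end.

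At the 4-fold limit the calls turn on few molecules. Just inside it were DAPMA1EVG017057, with 73 and 123 counts in FYB against 6 and 2 in FYH, and UBE2N/BEN (DAPMA1EVG023438), a ubiquitin-conjugating enzyme, with 52 and 71 against 3 and 2. Just outside were CTH/EIP55E (DAPMA1EVG030951), a cystathionine lyase, with 28 and 45 counts in FYB against 0 and 1 in FYH, and DAPMA1EVG018513 (model s000013F_p8.12), with 15 and 58 against none.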

How the data were processed

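The authors deposited raw counts of UMIs as a sparse matrix, with a table of each barcode's library code and lane and a list of gene names, per the file headers. The aligner, genome build, UMI handling and naming of genes are not given in the sources used here. The mixed matrix holds 48846 barcodes and 33957 genes, with no gene above 131 counts in a barcode. From it, barcodes of codes FYB and FYH with at least 500 UMIs were kept, counts were summed per code and lane and scaled to CPM (a library sum of 1000000). Genes that reached 50 counts when both libraries were added were compared by the ratio of FYB over FYH, with sums under 3 counts set to 3, and called at 4-fold. Where a sum holds 1 to 3 counts the printed ratio is the unfloored one. Intervals are exact (Clopper-Pearson, 95%) and cover counting error only. Named genes are, in each direction, the 12 with a symbol and the 3 without whose interval lies farthest from 1, with both lanes of FYB on the same side of both lanes of FYH, and members of the gene lists. Members and lists were chosen with earlier results of these data known; symbol collisions were removed from the lists, and limits for rich barcodes set, after the values were seen. No clustering and no doublet caller were run. None of the gene names matched the RefSeq gene table given. edgeR 4.0.16 supplied TMM factors only. The ratio and its interval were tested on simulated data. Alternatives covered the UMI and count limits, scaling, lanes, thinning, means over barcodes and the richest barcodes. 1 result is not reported here.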

Additional observations from a re-analysis of the deposited data

Results flagged for a closer look

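Barcodes under 500 UMIs take no part in the comparison and still carry a clear signal. Opsins made up 0.0592% of their UMIs in FYB and 10.682% in FYH, far above the limit of 3 counts. Globins made up 0.40559% of their UMIs in FYB and 0.00903% in FYH. In kept barcodes the opsin share was 0.0269% in FYB and 1.24% in FYH, and the globin share was 0.173% in FYB and 0.00322% in FYH. The source of this RNA was not tested.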

How the results depend on the processing

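The numbers of genes called depend on the limits. Against 245 genes higher in FYB and 152 higher in FYH, a minimum of 10 counts gave 245 and 353, and a minimum of 200 counts gave 119 and 55. Thinning FYB to the total of FYH left 89 higher in FYB, and 86 of these were among the 245. Without lane 1 the number higher in FYH was 80, and without the barcode richest in each gene, an alternative chosen after seeing the data, it was 101. Under the other settings both numbers stayed within 1.5 times. TMM scaling kept 224 of the 245 and all 152, with a median log2 ratio of 0.19. Of 450 recomputed log2 ratios of the 30 named genes, 449 kept their direction; SLC8A2/CALX reversed to 0.48 in barcodes under 500 UMIs, where 37 of the 245 and 24 of the 152 genes also turned. In those barcodes, of 72 called list members and leading genes, 49 stayed past 4-fold, against 68 with TMM scaling, 55 without lane 1 and 60 without lane 2. The order of the list shares was the same at 300 and 1000 UMIs in 20 of 23 lists; it changed at 1000 UMIs for ribosomal proteins, ferritin and antioxidant genes, and basement membrane genes. Merging barcodes seen in both lanes was not run, since the barcodes carry no sequence. No paired analysis was possible because each code is 1 library. With 179 barcodes in FYH, genes under about 55.1 CPM in FYB cannot be called against 0.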

Other observations

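The opsin models differed in how their level in small barcodes compared with that in kept ones. The most abundant opsin model in small FYH barcodes, m000020F_s14.34 of DAPMA1EVG031945, was at 45990 CPM in FYH barcodes under 500 UMIs and 2353 CPM in the kept ones, while the model m000005F_a18.41 of the same identifier was at 21718 and 4154 CPM. OPN4/RH2 (DAPMA1EVG025447) was the other way round, with 57.8 CPM in the small FYH barcodes and 289 CPM in the kept ones. In FYB it had 0.261 CPM in small barcodes and no count in kept ones.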
